A study of Mus musculus with 21 samples.

Results

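The 35 genes described here encode the machinery that builds cilia and moves cargo along them: 13 subunits of intraflagellar transport complex B (IFT-B), 6 of complex A (IFT-A), 7 of the BBSome, 2 chaperonin-like proteins that assemble the BBSome, its GTPase Arl6, 4 subunits of kinesin-2 and 2 of dynein-2. They were taken from a fixed list of gene symbols, and all 35 were found among the 23587 usable genes of one deposited table and the 22918 of the other. The mice came from a study of Mex3a, an RNA-binding protein, in the main olfactory epithelium. Every mouse carried a tetracycline-responsive transgene for mCherry and HyperTRIBE, an RNA-editing domain, either alone (HT) or joined to Mex3a (Mex3a-HT).

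There were 2 sets of mice. In the first, gg8tTA, a driver of immature olfactory sensory neurons (OSNs), was combined with OMPtTA, a driver of mature OSNs, and both fractions of the sort were sequenced. This set gave 3 HT and 6 Mex3a-HT libraries of mCherry+ neurons, labelled immature and mature OSNs, and 3 HT and 5 Mex3a-HT libraries of mCherry- cells. The other set carried gg8tTA alone with Mex3a-HT and gave 2 libraries of mCherry+ immature OSNs and 2 of mCherry- cells. Per the labels, mCherry- cells came from the same mouse as the mCherry+ library with the same number. All groups carried the editing domain, so no library came from a mouse without a transgene. The labels give neither age nor sex. The library names of the gg8tTA set carry another month than those of the gg8tTA;OMPtTA set. The drivers and the dates in the names therefore cannot be told apart, and levels were tested only within a set.

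The cilium is a compartment with no ribosomes, and its tubulin and membrane proteins are carried in from the cell body. Kinesin-2 moves trains of IFT-B and IFT-A towards the tip, dynein-2 returns them, and the BBSome rides on the trains as an adaptor for membrane proteins. An OSN bears its odorant receptors and transduction channels on the cilia of its dendritic knob, and loss of BBSome genes or of IFT genes shortens or empties these cilia and impairs smell. The same transport genes are also used by multiciliated cells of the neighbouring respiratory epithelium, so levels in a sorted fraction are not proof of a neuronal source.

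The libraries held 7529648 to 15358109 recovered counts, and libraries of a group differed by more than counting error. Mex3a checked the labels: it was at 24.0 to 61.5 TPM, the transcript level scaled by gene length and library total, in HT neurons and at 328 to 1270 TPM in Mex3a-HT neurons. In the mCherry- cells it was at 29.3 to 74.3 TPM with HT and 57.8 to 207 TPM with Mex3a-HT, so these ranges overlap. The mCherry- fraction was not free of neurons: the summed level of 14 mature OSN markers was 5784 to 11940 TPM in HT mCherry- cells and 9782 to 15030 TPM in HT neurons. With Mex3a-HT it was 643.3 to 7722 TPM in mCherry- cells and 2406 to 7190 TPM in neurons, so the fractions overlap with both constructs. In the gg8tTA mice it was 8345 to 14680 TPM in mCherry- cells and 334.8 to 984.7 TPM in neurons. Granulocyte and connective tissue markers were far higher in mCherry- cells than in neurons: the 10 granulocyte genes summed to 6400.0 to 15230 TPM and to 207.5 to 462.4 TPM in HT mice. Summed over the list, 19 genes listed as markers of multiciliated respiratory cells were at 1565 to 2113 TPM in HT neurons and 791.8 to 1441 TPM in Mex3a-HT neurons. In mCherry- cells the sums were lower with HT, at 799.1 to 1538 TPM, and at 205.7 to 911.4 TPM with Mex3a-HT, which overlaps its neurons. In gg8tTA mice they were 169.1 to 646.1 TPM in neurons and 929.0 to 1089 TPM in mCherry- cells. Whether OSNs or respiratory cells gave these transcripts was not tested. Xist was at 0.126, 60.3 and 0.14 TPM in the HT neuron libraries and at 58.4 to 140 TPM in Mex3a-HT neurons, so the construct and whatever goes with Xist can be told apart only through 1 HT library. In bulk samples, fewer cells of a type and less RNA per cell cannot be told apart.

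All 35 genes were expressed in every library, with the lowest recovered count, 21, for Bbs12. TPM is scaled by gene length, so levels can be set side by side. In HT neurons the highest mean level belonged to Traf3ip1 (also called Ift54, an IFT-B subunit) at 330.1 ± 29.1 TPM (SD, n = 3), followed by the IFT-A subunit Ift43 at 250.4 ± 32.3 and the IFT-B subunit Ift81 at 241.3 ± 32.0. These last values differ by less than their spread. At the other end stood the chaperonins Bbs12 at 10.1 ± 1.76 and Bbs10 at 12.3 ± 0.481, the IFT-A subunit Ttc21b at 14.6 ± 0.106, and Kif17, the homodimeric kinesin-2 that is an accessory motor in olfactory cilia, at 37.1 ± 6.07. The 35 genes summed to 3823 to 4677 TPM in HT neurons, 3023 to 4311 in Mex3a-HT neurons, 2362 to 3707 in HT mCherry- cells and 1482 to 2664 in Mex3a-HT mCherry- cells. Neurons and mCherry- cells did not overlap in this sum within either construct, while HT and Mex3a-HT neurons did.

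**Figure D1:**
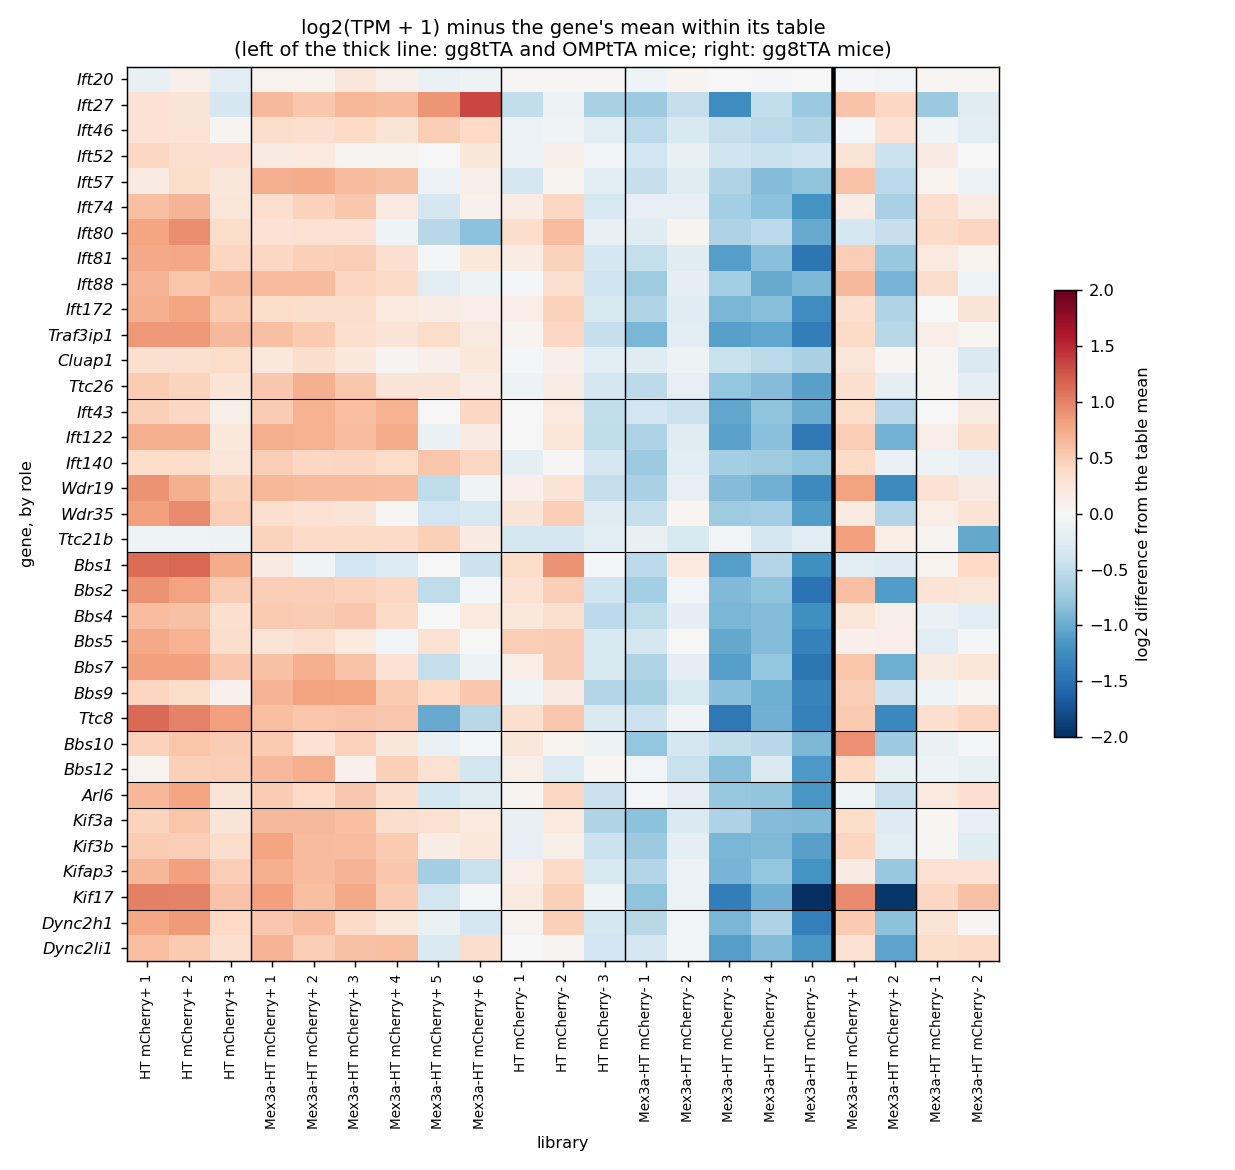
Level of the 35 genes in all 21 libraries, as log2(TPM + 1) minus the gene's mean over its own table, grouped by role and by library group, with colour from blue (lower) to red (higher). In the gg8tTA;OMPtTA mice most rows are red in mCherry+ neurons and blue in Mex3a-HT mCherry- cells, Mex3a-HT neuron libraries 5 and 6 are paler than the other 4, and in the gg8tTA mice neuron library 2 is blue in most rows.

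The first comparison asked which of these genes differed in mCherry+ neurons between Mex3a-HT and HT mice. Bbs1 was lower by the most, and with it Ift80, Wdr35, Bbs5, Traf3ip1 and Ift172, while Ift27 and Ttc21b were higher. These 8 of 35 genes (2 higher and 6 lower, 22.9%) passed an adjusted p of 0.05 in limma's moderated test on log2(TPM + 1), against 36.8% of all 16067 genes tested (19.9% higher and 16.8% lower). The median change of the 35 was -0.28 on the log2 scale and 25 of them lay below 0, beside a median of 0.03 over all genes, of which 48.3% lay below 0. By role, 2 of 7 BBSome subunits, 3 of 13 IFT-B subunits and 1 of 6 IFT-A subunits were called lower, 1 IFT-B and 1 IFT-A subunit were called higher, and no kinesin-2, dynein-2 or chaperonin gene nor Arl6 passed the test.

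**Figure D2:**
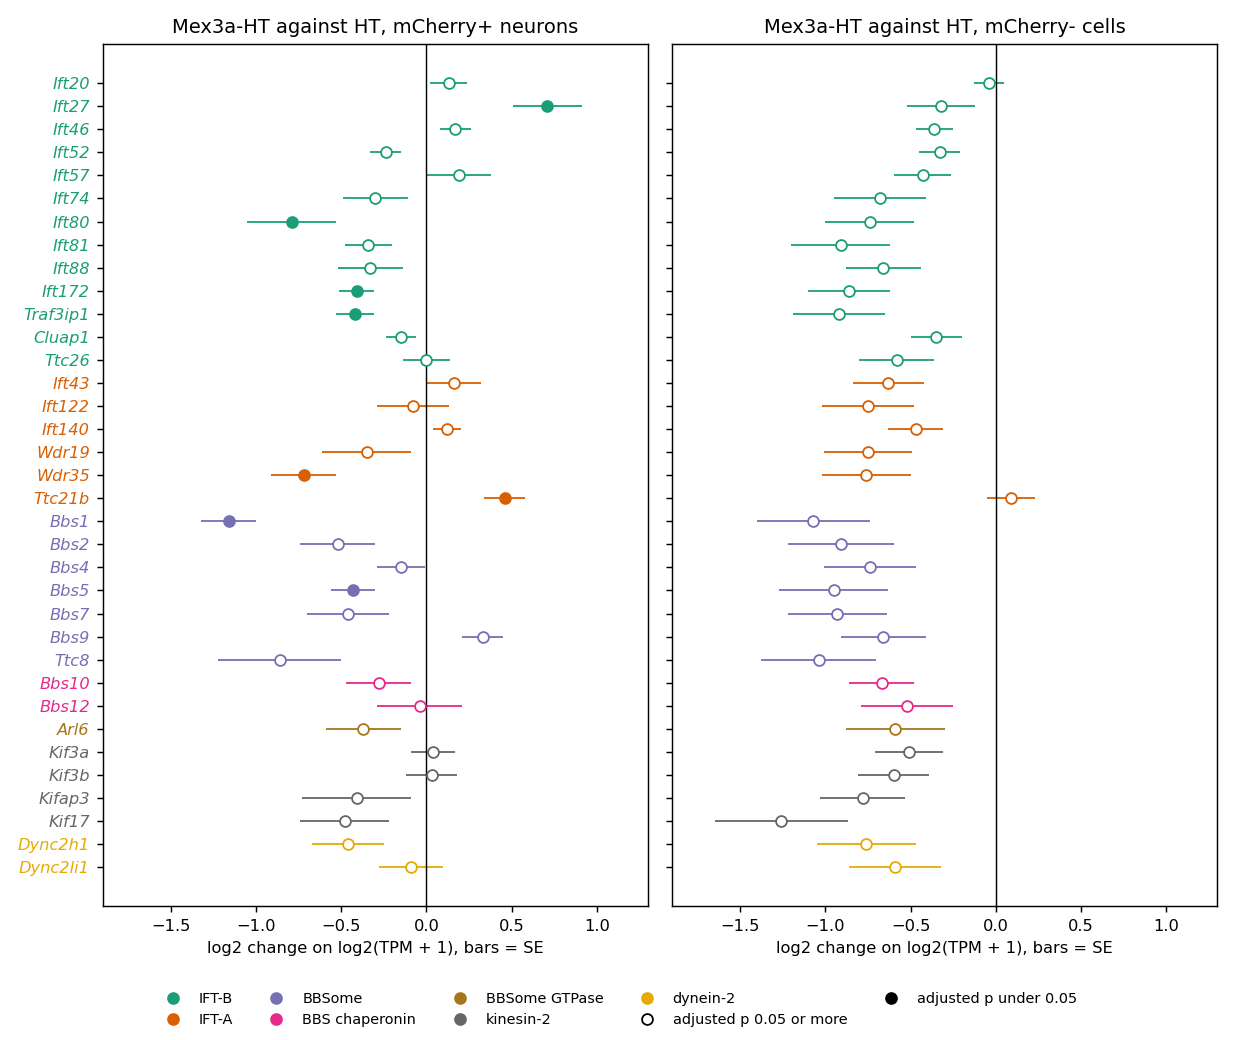
Change of each gene between Mex3a-HT and HT libraries in mCherry+ neurons (left) and mCherry- cells (right), on log2(TPM + 1) with its standard error, coloured by role, with filled points for an adjusted p under 0.05. On the left the genes scatter from -1.16 (Bbs1) to 0.71 (Ift27) and 8 points are filled. On the right 34 of 35 points lie below 0 and none is filled.

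Bbs1, the BBSome subunit that binds Arl6 at the membrane, lies at chr19:4886878-4906628 (mm10, minus strand). It was at 87.5, 89.2 and 67.2 TPM in HT neurons and at 29.4 to 45.0 TPM, median 35.4, in the 6 Mex3a-HT libraries. Every Mex3a-HT library was lower than every HT library. The change was -1.16 ± 0.16 (log2, SE), a 2.23-fold lower TPM + 1, with an adjusted p of 0.000696 in limma. Groups did not overlap in either direction for 12 of the 35 genes (34.3%), 3 higher and 9 lower, against 38.4% of all genes (21.5% higher and 16.9% lower).

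Bbs5, a BBSome subunit that binds phosphoinositides, lies at chr2:69647171-69667571. It was at 69.8, 66.8 and 52.5 TPM in HT neurons and at 39.2 to 51.4 TPM, median 48.0, in Mex3a-HT neurons, and the groups did not overlap (-0.43 ± 0.13 log2, adjusted p = 0.0278 in limma). Ttc8 had a larger estimate, -0.86 ± 0.36, and did not pass the test (adjusted p = 0.0837): it was at 118 to 149 TPM in HT neurons, at 98.1 to 103 TPM in Mex3a-HT libraries 1 to 4, and at 32.8 and 45.1 TPM in libraries 5 and 6. Bbs9 had the only estimate above 0 among the BBSome subunits, 0.33 ± 0.12 with an adjusted p of 0.0558. Estimates for the 7 subunits of this complex ran from -1.16 to 0.33.

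Of the IFT-B subunits, Ift80 (chr3:68892499-69004570) was at 161, 176 and 120 TPM in HT neurons and at 51.9 to 114 TPM in Mex3a-HT neurons, a change of -0.79 ± 0.26 with an adjusted p of 0.0382. Its HT and Mex3a-HT libraries did not overlap, but the spread within Mex3a-HT was wide, with libraries 5 and 6 lowest at 62.9 and 51.9 TPM. Traf3ip1 (chr1:91494647-91529307), which links IFT-B to microtubules, was at 346, 348 and 296 TPM in HT and at 216 to 287 TPM, median 242, in Mex3a-HT neurons (-0.42 ± 0.11, adjusted p = 0.0176). Ift172 (chr5:31253277-31291116), the large subunit that acts where trains turn around at the tip, was at 171, 180 and 151 TPM in HT and at 115 to 135 TPM, median 126, in Mex3a-HT neurons (-0.41 ± 0.10, adjusted p = 0.00939). For both genes all 6 Mex3a-HT libraries were below all 3 HT libraries.

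Ift27, a Rab-like GTPase of IFT-B through which the BBSome leaves the cilium, was higher. It lies at chr15:78159463-78174107 and was at 121, 118 and 78.0 TPM in HT neurons. In Mex3a-HT neurons it was at 144 to 251 TPM, median 155, all above HT, with library 6 far above the rest (0.71 ± 0.20, adjusted p = 0.0172). In IFT-A, Wdr35 (chr12:8973892-9028847) was at 157, 171 and 126 TPM in HT and at 67.5 to 111 TPM, median 98.1, in Mex3a-HT neurons, again with no overlap (-0.72 ± 0.19, adjusted p = 0.0131).

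Ttc21b, the IFT-A subunit also called THM1, was low but even: 14.6, 14.7 and 14.5 TPM in HT neurons and 17.7 to 22.1 TPM, median 20.7, in Mex3a-HT neurons (chr2:66184327-66256617; 0.46 ± 0.12, adjusted p = 0.0157). All Mex3a-HT libraries were above all HT libraries. Kif17 (chr4:138250435-138301967) was at 40.8, 40.3 and 30.1 TPM in HT and at 15.1 to 36.0 TPM, median 29.6, in Mex3a-HT neurons; these ranges overlap and the change of -0.48 ± 0.26 did not pass the test (adjusted p = 0.179). Kif3a and Kif3b, the motor subunits of the heterotrimeric kinesin-2, had changes of 0.04 ± 0.13 and 0.03 ± 0.15. None of the 8 called genes shares annotated exons with another gene in GENCODE M21, whereas Ift57, Ift88, Cluap1, Bbs12 and Arl6 do, so their values are less certain. The sources used here do not state a strand setting.

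**Figure D3:**
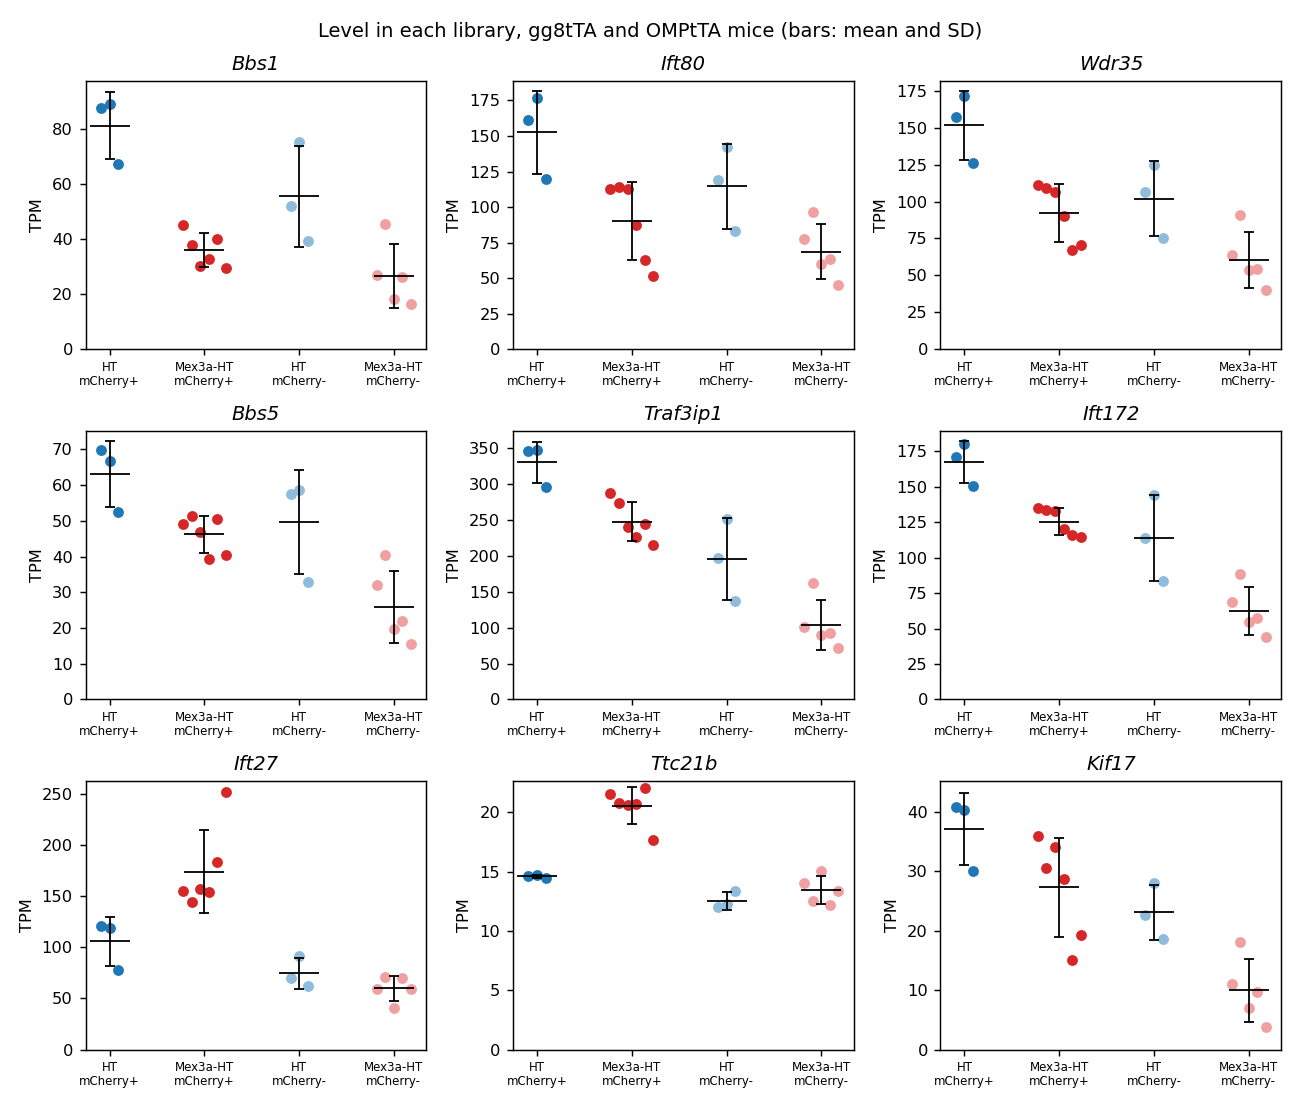
TPM of the 8 genes called between Mex3a-HT and HT neurons and of Kif17 in each of the 17 gg8tTA;OMPtTA libraries (points), with mean and SD per group (bars) and each axis starting at 0. The Mex3a-HT and HT neurons separate fully for the 8 called genes and overlap for Kif17.

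Mex3a-HT neuron libraries 5 and 6 stood apart, and this touches several of these genes. They had the highest Mex3a levels (1270 and 679 TPM, against 328 to 359 TPM in libraries 1 to 4) and, as mean log2(TPM + 1), the lowest mature OSN markers (6.78 and 7.58). For Ttc8, Kifap3, Wdr19, Bbs2 and Kif17 these 2 libraries were below the other 4. Without both, 14 genes passed the test, 5 higher and 9 lower, including all 8 above, against 44.8% of all genes. The added genes were Ift57, Bbs9 and Ift43 among the higher and Ttc8, Bbs2 and Ift52 among the lower. Leaving out HT library 2 left 2 genes called, with 24.5% of all genes, and leaving out HT library 1 left 3, with 23.4%. With Xist as a covariate none passed; all 8 kept their sign, 3 of the 35 had an unadjusted p under 0.05, and Bbs1 was at -1.24 ± 0.29 (adjusted p = 0.0619). That fit called 2.05% of all genes.

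Cell markers moved along in the same comparison. Of 14 mature OSN markers 11 were called lower (median -1.33), of 15 immature OSN markers 11 were called higher (median 0.85), of 18 tested multiciliated respiratory markers 10 were called lower (median -0.78) and all 10 macrophage markers were called lower (median -2.55), with HT neuron library 3 highest at a sum of 4494 TPM against 1014 and 1262 TPM in the other HT libraries. The part of these shifts in the changes of the 35 genes was not tested. Foxj1, the master regulator of motile cilia, was at 138 TPM on average in HT and 119 TPM in Mex3a-HT neurons and did not pass the test (-0.22 ± 0.18, adjusted p = 0.358).

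Neighbouring parts of the cilium were read from lists of the same kind. Of 13 further transport genes 2 were called lower, the BBSome subunit Bbip1 (-0.62 ± 0.22) and the BBSome regulator Lztfl1 (-0.52 ± 0.17), and none higher. Of 21 transition zone genes, which form the gate at the cilium base, 3 were called higher and 4 lower, with Rpgrip1l (-1.65 ± 0.25) and Cep290 (-0.81 ± 0.16) changing most. Of 13 ciliary GTPase and trafficking genes 3 rose and 2 fell, led by Rab28 (-1.22 ± 0.11) and Pde6d (-0.69 ± 0.21), and of 12 basal body appendage genes 2 rose and 2 fell, led by Ttbk2 (-0.98 ± 0.15) and Ccp110 (-0.64 ± 0.22). Over all genes, 36.8% were called in this comparison.

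Of 13 olfactory signalling genes 10 were called lower and none higher, with Adcy3, the adenylyl cyclase of olfactory cilia, at -2.72 ± 0.38 and the channel subunit Cnga4 at -2.48 ± 0.44 (median of the list -1.45). Of 26 motile axoneme genes 14 were called lower and 2 higher, led by Spef2 (-2.08 ± 0.49) and Tekt2 (2.02 ± 0.19). The signalling list shares genes such as Adcy3 with the mature OSN markers. The axoneme list shares genes such as Spef2 with the multiciliated respiratory markers. The counts of such lists are therefore not separate observations. Of 10 transcription factors from a list of RFX family members and ciliogenesis regulators, 4 were called lower and 2 higher. Rfx4 (-1.85 ± 0.34) and Rfx5 (-1.29 ± 0.23) led. A place on this list, as for Rfx5, is not evidence of a role in cilia.

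Ciliary transport genes are known targets of RFX factors, which bind the X box, a palindrome whose arm reads GTTGCC. The promoters (RefSeq, GRCm38.p6, from 250 bases before to 50 bases after the start site) of 31 of the 35 genes were searched on both strands. GTTGCC was found in 14 of these 31 genes (45.2%) and in 14.1% of all 27025 genes with a promoter in the table; by promoter, 12.5% of 32851 held it. A looser full form (GTTNCC, a gap of 5 bases of any kind, then AAC), which can overlap the arm, was found in 3 genes (9.68%), Bbs7, Ttc26 and Ift140, against 1.56% of all genes, and a strict full palindrome in none. These spellings were chosen after counts of others had been seen, and a match is a description of letters only. The windows of 30 bases below show the match in capitals for 6 of the 8 called genes, for Kif17, and for the 3 with the longer form, written 5′ to 3′ in the direction of the gene. The match of Ift140 lies on the strand opposite the gene, so its capitals show the reverse complement of the form: GTT, the gap, then GGNAAC. The window of Kif17 begins at 138262166, inside the GENCODE span given above, which starts at 138250435. Its RefSeq start site is therefore not the start of that span.
Bbs1, chr19:4906609-4906638, minus strand: atggctgagctgGTTGCCaaggcgacgcct
Wdr35, chr12:8974021-8974050, plus strand: gatgcgactgggcggcggtgGTTGCCaggc
Bbs5, chr2:69647191-69647220, plus strand: gatgtcgtgacaaagccggcgcGTTGCCtt
Traf3ip1, chr1:91494577-91494606, plus strand: gggcgcgcgtccGTTGCCaaggccgcgcgg
Ift172, chr5:31291097-31291126, minus strand: tgtcgcactcacGTTGCCtgtgcgtcagcg
Ift27, chr15:78174073-78174102, minus strand: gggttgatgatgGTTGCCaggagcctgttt
Kif17, chr4:138262166-138262195, plus strand: gacgtcacggagGTTGCCcagcaacggcga
Bbs7, chr3:36613489-36613518, minus strand: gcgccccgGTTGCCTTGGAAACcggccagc
Ttc26, chr6:38381483-38381512, plus strand: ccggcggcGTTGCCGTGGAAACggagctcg
Ift140, chr17:25015961-25015990, plus strand, match on the opposite strand: tggggcgtGTTGTGACGGCAACctcgcgcc
The arm was present both in genes called lower (Bbs1, Wdr35, Bbs5, Traf3ip1, Ift172) and in one called higher (Ift27). Of the other 2 called genes, Ttc21b held no match in its window, and Ift80 is among those without a promoter in the table.

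In mCherry- cells, Mex3a-HT against HT, no gene passed the test: 0 of the 35 and 0.0% of all 16860 genes tested by limma, with an unadjusted p under 0.05 for 29 of the 35 (82.9%) against 20.6% of all genes. By voom on recovered counts the count was also 0. Of the estimates 34 of 35 were below 0, against 51.2% of all genes, with a median of -0.67 against -0.01. The lowest adjusted p in limma was 0.218. The 35 genes were measured in the same libraries, so their estimates are not separate observations. All 7 BBSome subunits had an unadjusted p under 0.05, with estimates from -1.07 (Bbs1) to -0.66 (Bbs9). The 3 HT and 5 Mex3a-HT libraries did not overlap for 4 genes, all lower with Mex3a-HT (Kif17, Bbs10, Ift46 and Ift52, 11.4%), against 8.71% of all genes, 5.07% in this direction.

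Kif17 had the lowest estimate, -1.26 ± 0.39, at 22.6, 27.9 and 18.6 TPM in HT and 11, 18.2, 7.03, 9.70 and 3.87 TPM in Mex3a-HT mCherry- cells. The highest Mex3a-HT library, 2, was just under the lowest HT library. Ttc21b was the only gene of the 35 above 0, at 0.09 ± 0.14. Other cilium lists also lay mostly below 0, with none called: 13 of 13 further transport genes (median -0.59), 20 of 21 transition zone genes (-0.59) and 23 of 25 motile axoneme genes (-1.27). Of basal body appendage genes 12 of 12 did (-0.25), of ciliary GTPase and trafficking genes 10 of 13 (-0.39) and of olfactory signalling genes 12 of 13 (-1.54). Of the listed transcription factors 6 of 11 did (-0.02). In the same libraries 14 of 14 mature OSN markers and 18 of 18 multiciliated respiratory markers had estimates below 0, with medians of -1.63 and -1.31 and none called, and all 10 granulocyte markers lay above 0. The part of these markers in the estimates of the 35 genes was not tested.

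In Mex3a-HT mice these genes differed widely between the sorted fractions. The mCherry+ cells also had more Mex3a, at a mean of 551 against 122 TPM, so fraction and construct level cannot be told apart here. Between mCherry+ neurons and mCherry- cells, 32 of 35 genes were higher in neurons and none lower (91.4%), against 63.4% of all 16522 genes, 35.8% called higher and 27.6% lower. The median difference was 1.00 on the log2 scale, against 0.16 over all genes. With median-of-ratios scaling the median of all genes shifted by -0.13 to 0.03 and that of the 35 genes to 0.87. Under it 31 of the 35 were called, against 60.5% of all genes. Every kinesin-2, dynein-2, IFT-A and chaperonin gene and Arl6 passed the test, as did 11 of 13 IFT-B and 6 of 7 BBSome genes.

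The differences were largest for Ift27, Bbs9 and Kif17. Ift27 was at 59.1, 70.7, 41.0, 69.6 and 58.7 TPM in mCherry- cells and at 144 to 251 TPM in neurons (1.52 ± 0.17, adjusted p = 7.81e-06 in limma). Bbs9, a scaffold subunit of the BBSome, was at 50.3, 64.2, 44.5, 40.2 and 31.0 TPM in mCherry- cells and at 106 to 141 TPM, median 123, in neurons (1.45 ± 0.16, adjusted p = 7.03e-06). For both, every neuron library was above every mCherry- library, as for 18 of the 35 genes (51.4%) against 23.4% of all genes higher in this way. Kif17 was at 3.87 to 18.2 TPM in mCherry- cells and at 15.1 to 36.0 TPM in neurons, so its ranges overlap at neuron library 5 (1.45 ± 0.32, adjusted p = 0.00184).

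The 3 genes that did not pass were Bbs1 (0.49 ± 0.23, adjusted p = 0.0763), Ift80 (0.37 ± 0.24, adjusted p = 0.193) and Ift20 (0.05 ± 0.09, adjusted p = 0.653), named here because they were few. With the mouse as a block, since both fractions came from 1 mouse, Bbs1 (0.54 ± 0.20, adjusted p = 0.0407) and Ift80 (0.52 ± 0.12, adjusted p = 0.00456) passed as well and Ift20 did not (adjusted p = 0.534), so 34 genes were called, against 65.0% of all genes. Ift80 was higher in neurons in all 5 mice and Bbs1 in 4 of 5. Ift20, the IFT-B subunit that also sits at the Golgi, was at 148 to 164 TPM in mCherry- cells and at 143 to 185 TPM in neurons, and its estimate turned below 0 with median-of-ratios scaling. Taken mouse by mouse, libraries already used in the test had 33 genes higher in neurons in all 5 mice. The share of all genes with this pattern was not counted. Medians over the 35 genes ran from 0.69 in mouse 2 to 1.3 in mouse 3.

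Other cilium genes were also higher in these neurons: 11 of 13 further transport genes (median 0.95, led by Rabl2 at 1.55 ± 0.19 and Ttc30b at 1.48 ± 0.24), 17 of 21 transition zone genes (median 1.02, led by Nphp4 at 1.53 ± 0.12 and Cc2d2a at 1.34 ± 0.19) and 20 of 25 motile axoneme genes (median 1.26, led by Tekt2 at 2.95 ± 0.15 and Tekt4 at 2.07 ± 0.47). Of 13 olfactory signalling genes, by contrast, 2 were called higher and 1 lower (median 0.53), with Cnga2 at 1.13 ± 0.45 and Gnb1 at 0.54 ± 0.19. Genes listed as markers of multiciliated respiratory cells, a list that shares genes with the motile axoneme one, were also higher in the sorted neurons. Of these, 13 of 18 were called higher and 1 lower (median 1.24), and Foxj1 was higher by 1.46 ± 0.30. Mature OSN markers had 2 of 14 called higher (median 0.80) and immature OSN markers 10 of 15 (median 1.00). The part of respiratory cells or immature neurons in the differences of the 35 genes was not tested.

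In HT mice the same comparison, over 3 mice, gave smaller differences: 3 genes passed the test, all higher in neurons (8.57%), against 2.18% of all 17027 genes called higher and 11.3% called in either direction. The median was 0.56 against 0.10 over all genes, and 34 of the 35 estimates lay above 0, as did 57.6% of all genes. Neurons and mCherry- cells did not overlap for 22 genes (62.9%), all higher in neurons, against 22.9% of all genes. With the mouse as a block, since both fractions came from 1 mouse, 30 genes passed, against 13.2% of all genes called higher and 29.2% in either direction; the others were Ift20, Ttc21b, Bbs5, Bbs10 and Bbs12.

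The 3 genes called without the block were close to the threshold. Kif3b was at 140, 138 and 126 TPM in neurons and at 87.7, 107 and 72.6 TPM in mCherry- cells (0.61 ± 0.15, adjusted p = 0.0496). Dync2li1, the light intermediate chain of dynein-2, was at 98.3, 93.7 and 81.4 against 64.3, 66.8 and 49.2 TPM (0.60 ± 0.15, adjusted p = 0.0483). Ift140 was at 128, 128 and 118 against 87.7, 101 and 78.0 TPM (0.49 ± 0.12, adjusted p = 0.0485), and in all 3 genes the fractions did not overlap.

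Without the block the count was 0 under a pseudocount of 0.1 TPM, with no filter, with median-of-ratios scaling and with voom. These settings called 6.38% to 11.0% of all genes. Leaving out HT mCherry- library 2 raised it to 20, with 24.5% of all genes called then, and leaving out any other library of the comparison gave 0, with 3.87% to 7.94% of all genes called. Kif17 was at 0.67 ± 0.20 (adjusted p = 0.0733, or 0.0181 with the mouse as a block), from 30.1 to 40.8 TPM in neurons and 18.6 to 27.9 TPM in mCherry- cells. In neurons 33 genes were higher in all 3 mice, with medians of 0.58, 0.32 and 0.71. In the same libraries 7 of 10 macrophage markers were called higher (median 2.41) and 2 of 18 multiciliated respiratory markers (median 0.68), and their part in the differences was not tested.

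**Figure D4:**
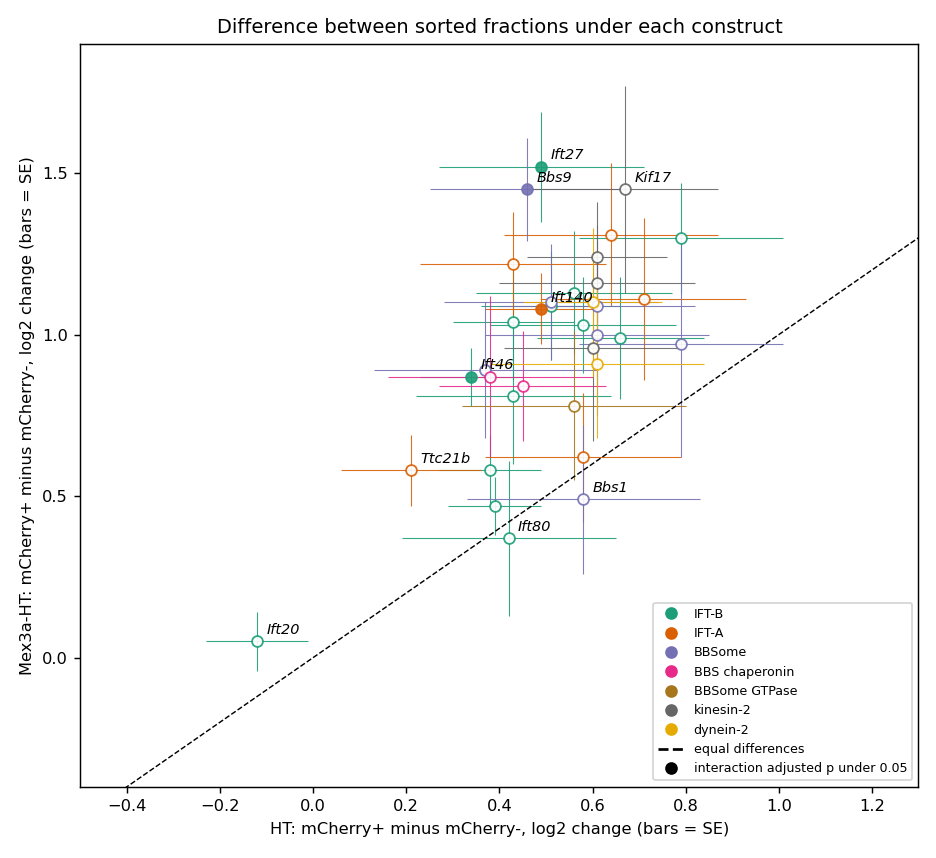
Difference between mCherry+ neurons and mCherry- cells for each of the 35 genes in HT mice (horizontal) and Mex3a-HT mice (vertical), on log2(TPM + 1) with standard errors, coloured by role. Most points lie above the dashed line of equal differences, and the 4 filled points (Ift27, Bbs9, Ift140 and Ift46) passed the test of the interaction.

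Whether the difference between fractions itself differed between constructs was tested as an interaction over the 17 libraries. It was larger with Mex3a-HT for 4 genes and smaller for none (11.4%), against 7.05% of all 16785 genes called larger, 5.37% called smaller and 12.4% called in either direction. These were Ift27 (1.03 ± 0.29, adjusted p = 0.0298), Bbs9 (0.99 ± 0.28, adjusted p = 0.0278), Ift140 (0.59 ± 0.17, adjusted p = 0.0316) and Ift46 (0.53 ± 0.13, adjusted p = 0.0161). For 33 of 35 genes, and 56.7% of all genes, the estimate was above 0, with a median of 0.48 against 0.10 over all genes. So were 11 of 13 further transport genes (median 0.52), 17 of 21 transition zone genes (0.48) and 21 of 25 motile axoneme genes (0.52). Of ciliary GTPase and trafficking genes 11 of 13 were (0.39), of basal body appendage genes 8 of 12 (0.16) and of olfactory signalling genes 7 of 13 (0.09). Of the listed transcription factors 4 of 11 were (-0.03). All calls over all genes split into 1184 larger and 902 smaller with TPM as deposited, and into 715 and 1057 with median-of-ratios scaling, under which 2 of the 35 genes were called and the estimates of Ift52 and Wdr35 turned below 0.

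The 2 sides of the interaction can be read from the levels. Ift46 was at 69.8, 69.6 and 59.4 TPM in HT neurons and 69.4 to 81.1 TPM in Mex3a-HT neurons, which overlap, and at 52.4, 54.7 and 49.4 TPM in HT mCherry- cells against 39.3, 46.0, 40.6, 39.0 and 37.5 TPM in Mex3a-HT mCherry- cells, which do not. Ift140 was at 128, 128 and 118 TPM in HT neurons and 129 to 146 TPM in Mex3a-HT neurons, which do not overlap, and at 78.0 to 101 against 56.3 to 84.7 TPM in mCherry- cells, which do. Bbs1 (-0.09 ± 0.38) and Ift80 (-0.05 ± 0.39) were the only genes with an estimate below 0.

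With the mouse as a block 10 genes passed, against 8.5% of all genes called larger and 15.5% in either direction, and with voom 1, against 9.75% of all genes. Leaving out HT neuron library 3 gave 0, with 8.98% of all genes called. Leaving out HT mCherry- library 1 or 2 gave 1 each, with 9.18% and 7.14% of all genes. Leaving out Mex3a-HT mCherry- library 4 gave 2, with 9.15% of all genes, and library 2 gave 7, with 13.8%. Kif17 was at 0.78 ± 0.49 (adjusted p = 0.317). All 10 macrophage markers had a negative interaction that passed the test (median -2.56), and its part was not tested.

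In the gg8tTA mice, 2 against 2 libraries, no member passed the test between neurons and mCherry- cells, against 8.32% of all 16490 genes. The unadjusted p in limma was under 0.05 for 2 of the 35 and 31.0% of all genes. With voom none of the 35 was called either, against 8.34% of all genes. The median was -0.18 against 0.09, the range ran from -1.0 (Kif17) to 0.97 (Ift27, adjusted p = 0.0888), and 14 genes lay above 0, against 53.5% of all genes. Groups did not overlap for 12 genes (34.3%), 5 higher and 7 lower, against 63.6% of all genes (33.5% higher and 30.2% lower). The signs of Ift57 and Bbs9 turned with median-of-ratios scaling.

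The 2 neuron libraries were unlike each other. Kif17 was at 27.4 and 2.83 TPM in neurons and at 18.6 and 21.1 TPM in mCherry- cells, so 1 neuron library was above both controls and the other far below. In mouse 1, 28 of 35 genes were higher in neurons (median 0.32) and in mouse 2 only 9 were (median -0.69). Shares of all genes in single mice were not counted. Ift27 was higher in neurons in both mice, at 195 and 176 TPM against 78.6 and 112 TPM. Ift20 was level, at 151 and 148 TPM against 159 and 158 TPM.

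The neuron library of mouse 2 also had the higher Mex3a level, 1630 against 460 TPM, and the lower mature OSN and multiciliated respiratory markers, at sums of 334.8 and 169.1 TPM against 984.7 and 646.1 TPM in mouse 1. Xist was at 159 TPM in that library and at 0.441 TPM in the neurons of mouse 1. Leaving out either neuron library leaves 1 against 2, so the spread comes from the mCherry- libraries alone and the lone library is assumed to vary like them. Only sizes are therefore given for fits that left out 1 library. In these the median change of the 35 genes ran from -0.64 to 0.35, beside -0.08 to 0.21 over all genes. Without the neuron library of mouse 2 the estimate of Kif17 was 0.45. In the full comparison 10 of 14 mature OSN markers and 10 of 13 olfactory signalling genes were called lower in these neurons (medians -4.22 and -4.02). These 2 lists share genes. Of multiciliated respiratory markers 2 of 18 were called lower (median -1.52), while 0 of 13 further transport genes (median 0.05) and 0 of 21 transition zone genes (median 0.21) were called. Their part in the values of the 35 genes was not tested.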

How the data were processed

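RNA of sorted cells was sequenced from 21 libraries (SMARTer total RNA kit, per the labels' protocols). The authors deposited 2 tables of TPM values by gene symbol. FastQC, cutadapt, STAR, bedtools and mm10 are named in the submitters' processing notes; the counting program, annotation and use of strand are not given in the sources used here. From the deposited TPM, 27 date-like symbols per table were left out. Whole counts were recovered from the TPM steps (100.0% of 23614 and 99.86% of 22809 genes, within 0.01 and 0.05 counts) and served for depth and voom only.

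On log2(TPM + 1), limma 3.58.1 (R 4.3.3, empirical Bayes with trend) was run on the groups of each comparison alone, for genes whose mean there reached 1 TPM. P-values, two-sided, were adjusted by Benjamini-Hochberg over all genes tested, with a threshold of 0.05. A fold change on this scale understates the change of low genes. The fits of the 5 comparisons between groups, but not the interaction, were run on simulated data. That simulation drew independent noise for each gene, so it holds no shifts shared within a library or mouse. All 35 genes passed the filter in all 6 comparisons.

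Full values are given for up to 6 called genes a direction between constructs in neurons, up to 3 elsewhere, and Kif17. The 2 most changed called genes are named for each further list. The members, lists and rules were chosen with earlier results of these data known. The numbers of replicates pair fractions of 1 mouse, per the labels. Deviations of the fractions of a mouse had correlations of 0.18, 0.31 and 0.47 in HT mice. They were 0.2, 0.25, -0.1, 0.08 and 0.43 in Mex3a-HT mice and 0.02 in each gg8tTA mouse. For mCherry- cells of HT and Mex3a-HT mice, same-numbered libraries deviated together (correlations of 0.34, 0.33 and 0.38), and the block called none there either. Mex3a-HT mCherry- libraries 4 and 5 have no HT library of their number, so that block rests on libraries 1 to 3 of each group. The labels do not say more of how the mice of a group are related, so p-values measure the spread between these libraries.

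Promoters are from RefSeq (GRCm38.p6), gene positions from GENCODE M21. Editing sites were not analysed here.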

Additional observations from a re-analysis of the deposited data

Results flagged for a closer look

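In groups of 5 or 6 libraries, 4 of 70 checks of a lone high or low library were past Dixon's critical value, where chance flags about 1 in 20. Ift27 in Mex3a-HT neuron library 6 was at 251 TPM, with the nearest library at 183. Ttc21b in the same library was lowest at 17.7 TPM, with the nearest at 20.6. In Mex3a-HT mCherry- library 2, Ift52 was highest at 51.4 TPM (nearest 43.2) and Ift140 at 84.7 TPM (nearest 61.3).

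The difference between neurons and mCherry- cells differed between constructs, by the interaction test, for Ift27 (1.03), Bbs9 (0.99), Ift140 (0.59) and Ift46 (0.53, all log2). In single mice the difference of Ift27 ran from 1.01 to 1.91 in the 5 Mex3a-HT mice and from 0.31 to 0.78 in the 3 HT mice, and that of Bbs9 from 1.12 to 1.74 and from 0.21 to 0.68. That of Ift140 ran from 0.64 to 1.36 and from 0.33 to 0.59, and that of Ift46 from 0.65 to 1.09 and from 0.26 to 0.41. These ranges are a description of genes that the interaction test chose.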

How the results depend on the processing

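Between Mex3a-HT and HT neurons, 8 genes were called, and the same 8 under another pseudocount, other filters, median-of-ratios scaling and voom. These settings called 26.7% to 42.6% of all genes, against 36.8% in the main fit. The count was 5 with all 4 groups in one fit (35.7% of all genes) and 0 with Xist as a covariate (2.05%). Without Mex3a-HT libraries 5 and 6, a setting chosen after seeing the data, it was 14 (44.8%). Leaving out 1 library gave 2 to 9, with 23.4% to 40.5% of all genes called. In HT mice, neurons against mCherry- cells, 3 became 0 with a pseudocount of 0.1 TPM (11.0% of all genes) or no filter (6.8%). It was also 0 with median-of-ratios scaling (11.0%) or voom (6.38%), and it was 5 with all 4 groups (16.4%). When 1 library was left out it ran from 0 to 20, with 3.87% to 24.5% of all genes called. In gg8tTA mice the median change of the 35 genes ran from -0.64 to 0.35 when 1 library was left out, against -0.18. The change of Kif17 ran from -2.44 to 0.45, against -1.0. For the interaction, 4 became 2 with median-of-ratios scaling (10.6% of all genes) and 1 with voom (9.75%). When 1 library was left out it ran from 0 to 7, with 7.14% to 14.8% of all genes called. Between fractions of Mex3a-HT mice, 32 stayed within 31 to 33 when 1 library was left out, with 58.4% to 64.8% of all genes called. It was 33 without neuron libraries 5 and 6, with 66.1%. Between mCherry- cells 0 stayed at 0, and leaving out 1 library there called at most 0.0239% of all genes. The causes of these moves were not tested.

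With the replicate block, the counts were 30 in HT mice (29.2% of all genes), 10 for the interaction (15.5%), 34 in Mex3a-HT mice (65.0%), 0 in gg8tTA mice (9.27%) and 0 between mCherry- cells (0.0%). In HT and Mex3a-HT neurons the numbers are shared by different mice. Same-numbered libraries did not deviate together (correlations of 0.02, -0.04 and -0.05), and 2 of 6 libraries correlated best with their own number. Mex3a-HT libraries 4, 5 and 6 have no HT library of their number. With the block, the estimates between constructs therefore rest on libraries 1 to 3 of each group, and that of Ift80 was -0.41 instead of -0.79. The block gave 8 calls, 5 of them shared with the fit without it, and called 29.9% of all genes. Among the estimates of the genes given in full, the 0.45 of Kif17 was the only change of sign under these settings. The lowest count of any of the 35 genes in a library was 21, so no value rests on a count near 0.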
